A study of Homo sapiens with 9 samples.

Results

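The Fc receptor-like (FCRL) family was examined in 9 RNA libraries. All came from Raji cells, a human line established from a Burkitt lymphoma, a tumour of B cells. The members were taken by name (FCRL1, FCRL2, FCRL3, FCRL4, FCRL5 and FCRLA). Of these 6 genes, 4 (FCRL3, FCRL4, FCRL5 and FCRLA) had a row among the 15436 genes of the deposited table, and FCRL1 and FCRL2 are not analysed here. All 4 passed the filter on low values, at 1 CPM or more (counts scaled to library size and composition) in every library, so 4 of 11346 tested genes are members. A further relative, FCRLB, was also listed and is described beside them. The members were selected on values of these genes in the same libraries, with no record of which of them, so the levels and folds of the members below are a description. The adjusted p beside each is its place in the test of all 11346 genes and is not independent support.

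HU, Thy-Noc and DMSO groups of 3 libraries each were compared. Cells of the HU group had received hydroxyurea, which blocks ribonucleotide reductase and so deprives replication forks of nucleotides. Cells of the Thy-Noc group had received thymidine, which in excess also arrests DNA synthesis, and nocodazole, a microtubule poison that arrests cells in mitosis. Cells of the DMSO group had received solvent. The labels state no dose, time or culture condition. All groups are the same line, and nothing in the labels says that replicates were separate cultures, so p-values measure only the spread between these libraries, which may be technical.

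FCRL proteins are immunoglobulin-superfamily relatives of the classical Fc receptors and are made mainly by B cells. FCRL3, FCRL4 and FCRL5 are surface receptors whose cytoplasmic tails carry, among other tyrosine motifs, ones of the inhibitory type (ITIMs), which recruit phosphatases such as PTPN6 and PTPN11 and dampen signals from the B-cell receptor. FCRLA and FCRLB lack a membrane anchor and stay inside the cell, where FCRLA binds immunoglobulin in the endoplasmic reticulum. In people, FCRL4 is known as a marker of tissue-resident memory B cells, and FCRL5 as a receptor for IgG.

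On GRCh38 with GENCODE release 29, FCRL5, FCRL4 and FCRL3 lie in this order on the minus strand of chromosome 1, at 157513377 to 157552520, 157573749 to 157598080 and 157674321 to 157700857. FCRLA (161706972 to 161714352) and FCRLB (161721563 to 161728143) lie next to each other on the plus strand of the same chromosome. An antisense gene, AL356276.1, overlaps FCRL3. The strand setting of the authors' counting is not stated, so reads of that pair cannot be told apart.

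The 250 bases before the RefSeq start (GRCh38.p14) of the 4 analysed members are shown because FCRL3 was called lower in HU and in Thy-Noc than in DMSO libraries and FCRL4, FCRL5 and FCRLA were not called. All 6 named members matched 1 start each. Capitals mark matches, on either strand, to 5 short motifs of factors active in B cells or under stress.
FCRL3, chr1:157700770-157701019, minus strand: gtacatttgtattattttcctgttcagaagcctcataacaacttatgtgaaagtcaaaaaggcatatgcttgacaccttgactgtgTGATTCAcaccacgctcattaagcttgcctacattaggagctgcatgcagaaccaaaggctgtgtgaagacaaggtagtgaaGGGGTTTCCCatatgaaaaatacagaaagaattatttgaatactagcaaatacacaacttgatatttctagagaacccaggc
FCRL4, chr1:157598086-157598335, minus strand: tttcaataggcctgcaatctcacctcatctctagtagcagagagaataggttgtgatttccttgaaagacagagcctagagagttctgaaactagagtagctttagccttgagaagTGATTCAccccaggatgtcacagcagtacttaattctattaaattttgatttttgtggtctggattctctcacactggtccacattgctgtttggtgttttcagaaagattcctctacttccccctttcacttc
FCRL5, chr1:157552516-157552765, minus strand: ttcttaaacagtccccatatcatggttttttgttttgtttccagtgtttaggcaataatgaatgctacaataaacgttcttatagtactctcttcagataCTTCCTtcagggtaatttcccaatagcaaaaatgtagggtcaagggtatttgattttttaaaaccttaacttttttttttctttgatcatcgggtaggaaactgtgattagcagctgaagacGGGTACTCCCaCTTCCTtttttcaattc
FCRLA, chr1:161706979-161707228, plus strand: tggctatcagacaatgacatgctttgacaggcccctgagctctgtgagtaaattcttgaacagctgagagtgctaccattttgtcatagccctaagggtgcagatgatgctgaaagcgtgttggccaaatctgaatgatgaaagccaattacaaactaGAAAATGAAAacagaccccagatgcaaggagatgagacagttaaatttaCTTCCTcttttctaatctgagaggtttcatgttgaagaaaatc

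FCRL3 and FCRL4 each hold 1 match to TGANTCA (AP-1 type), which 6.57% of 35116 RefSeq promoter windows of this length hold. FCRL3 and FCRL5 each hold 1 match to GGGA, any 4 bases and CC (NF-kB type, 22.6% of windows). FCRL5 holds 2 matches and FCRLA 1 match to AGGAAG (the core bound by PU.1 and other ETS factors, 28.7%). FCRLA holds 1 match to GAAA, any 2 bases and GAAA (interferon regulatory factor type, 3.02%), and no window of these 4 holds the octamer ATGCAAAT (1.63%). No match overlaps another. GENCODE places the outermost starts of FCRL3, at 157700857, and of FCRL5, at 157552520, inside these windows, and that of FCRLA, at 161706972, before its window. A match is a stretch of letters and not a measured binding site.

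The library totals ran from 74940755 to 110485145, and 8 of 8 B-cell markers had a row. Their summed level was 1060 to 1960 CPM in HU, 1380 to 2030 CPM in Thy-Noc and 1400 to 1920 CPM in DMSO libraries. Of the markers of other cells, 0 of 7 T-cell, 1 of 5 NK-cell and 2 of 5 monocyte genes had a row. The NK-cell gene, NKG7, stayed below 1 CPM in every library. The 2 monocyte genes summed to 1.14 to 2.64 CPM in HU, 0.285 to 0.961 CPM in Thy-Noc and 0.33 to 0.595 CPM in DMSO libraries. The 6 germinal centre or Burkitt lymphoma markers summed to 291 to 845 CPM in HU, 681 to 1520 CPM in Thy-Noc and 924 to 1380 CPM in DMSO libraries. The 4 plasma cell markers with a row summed to 617 to 709 CPM in HU, 867 to 1070 CPM in Thy-Noc and 888 to 1060 CPM in DMSO libraries. In HU against DMSO all 3 of these sums were apart, the monocyte sum higher and the others lower in HU, and their part in the results was not tested. For single genes, HU and DMSO libraries did not overlap in 30.7% of all tested genes. The most abundant genes weigh most in such sums, here TCF3 among germinal centre markers and JCHAIN and MZB1 among plasma cell markers. Log2 fold changes in HU against DMSO were positive for 1 of 5 tested germinal centre and 2 of 4 tested plasma cell markers. In bulk RNA, fewer cells with a transcript and less transcript per cell cannot be told apart. Replicates differed at least 10-fold in at least 1 group for 1838 of the 11346 tested genes (16.2%). Among the members this was true of FCRL5, where HU replicate 2 stood far below HU replicates 1 and 3.

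FCRL3 was the member with clear separation between all groups. The level was 6.85, 10.4 and 8.92 CPM in the HU libraries, 1.46, 1.41 and 2.13 CPM in the Thy-Noc libraries and 37.3, 26.3 and 41.2 CPM in the DMSO libraries. No HU or Thy-Noc library reached the lowest DMSO library, and no Thy-Noc library reached the lowest HU library. The underlying counts were 542, 804 and 937 in HU, 107, 109 and 206 in Thy-Noc, and 2949, 2823 and 3242 in DMSO.

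**Figure D1:**
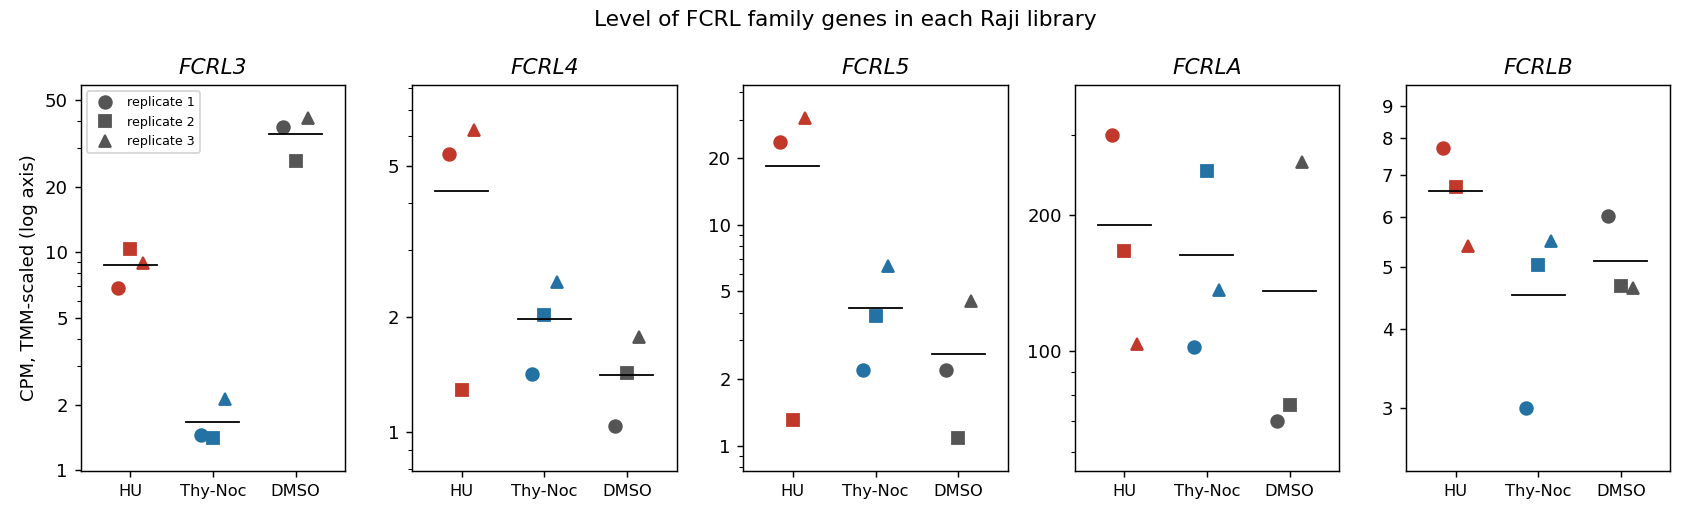
CPM of 4 FCRL members and of FCRLB in each library, on a log axis with its own range per gene; groups are HU, Thy-Noc and DMSO from left to right, symbols are replicates and bars are group means. FCRL3 forms 3 separate bands with means of 8.72, 1.67 and 34.9 CPM, while in FCRL4 and FCRL5 HU replicate 2 sits with the other groups.

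FCRL3 averaged 8.72 ± 1.79 CPM in HU and 34.9 ± 7.71 CPM in DMSO (SD, n = 3 each), 4.0-fold lower in HU. The log2 fold change was −2.00 ± 0.28 (SE), with an adjusted p of 0.0222 by edgeR's quasi-likelihood test over all genes. Only 299 of the 11346 tested genes had a log2 fold change this low or lower. FCRL3 was the only 1 of the 4 members past the threshold of 0.05 in this comparison, where 3.56% of all tested genes passed in either direction and 1.56% as lower, and 21.2% had an unadjusted p under 0.05. HU and DMSO libraries did not overlap for 30.7% of all tested genes, with 15.3% lower and 15.5% higher in HU, so the separation of the groups was common in this comparison. The call ended without DMSO replicate 1 or 3 and without HU replicate 1 or 3 (edgeR adjusted p 0.0701 to 0.0795 in these 4 fits), and in a fit of the 6 HU and DMSO libraries alone (edgeR adjusted p 0.0576), with log2 fold changes of −2.16 to −1.85 in the 9 fits without 1 library. It also ended with the replicate number in the fit as a block (edgeR adjusted p 0.0663).

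FCRL3 was lower still in Thy-Noc, at 1.67 ± 0.40 CPM against 34.9 ± 7.71 CPM in DMSO (SD, n = 3 each), a 20.9-fold difference. The log2 fold change was −4.39 ± 0.31 (SE), with an adjusted p of 0.00518 by edgeR's quasi-likelihood test. Few genes passed in this comparison: 4 of 11346 (0.0353%), of which 3 were higher (0.0264%) and 1 was lower (0.00881%), and that 1 was FCRL3. An unadjusted p under 0.05 was found for 4.49% of the tested genes. Groups did not overlap for 9.97%, with 4.79% lower and 5.18% higher in Thy-Noc. In the order of p-values FCRL3 stood at position 3 of 11346. The call held without any 1 of the 9 libraries (edgeR adjusted p 0.00883 to 0.0391). It ended with the replicate number in the fit as a block (edgeR adjusted p 0.0855), where 0 of all tested genes were called.

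Between the blocks, FCRL3 averaged 8.72 ± 1.79 CPM in HU against 1.67 ± 0.40 CPM in Thy-Noc (SD, n = 3 each), 5.23-fold higher in HU. The log2 fold change was 2.39 ± 0.28 (SE), with an adjusted p of 0.0186 by edgeR's quasi-likelihood test. FCRL3 was again the only 1 of 4 members called, where 1.75% of all tested genes passed, 0.696% as higher and 1.06% as lower, and 19.4% had an unadjusted p under 0.05. Groups did not overlap for 24.9%, with 12.9% higher and 12.0% lower in HU. The call ended without HU replicate 1 or 3 or any 1 Thy-Noc replicate (edgeR adjusted p 0.0528 to 0.069), and in a fit of these 6 libraries alone (edgeR adjusted p 0.0809), with log2 fold changes of 2.25 to 2.61 in the fits without 1 library. It also ended with the replicate number in the fit as a block (edgeR adjusted p 0.0819). The HU and Thy-Noc comparisons with DMSO use the same 3 DMSO libraries and are not independent of each other.

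**Figure D2:**
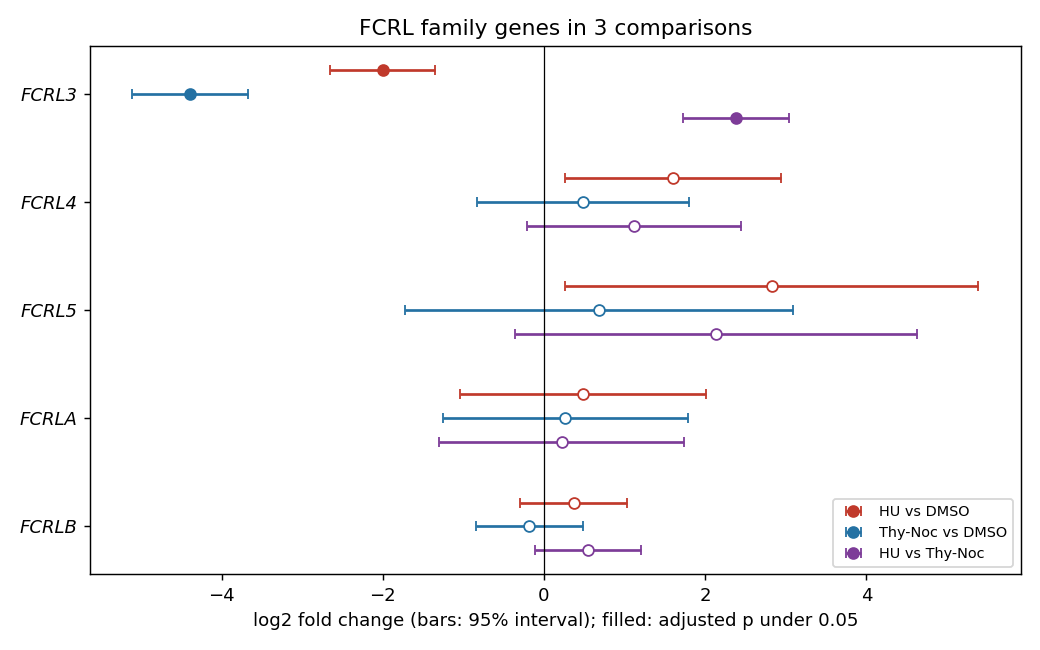
Log2 fold changes of FCRL genes in HU against DMSO, Thy-Noc against DMSO and HU against Thy-Noc, with 95% intervals from the edgeR fit; filled points passed an adjusted p of 0.05. The filled points are the 3 of FCRL3, at −2.00, −4.39 and 2.39.

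FCRL4 and FCRL5, ITIM receptors like FCRL3, did not share its fall. FCRL4 stood at 5.38, 1.29 and 6.22 CPM in HU libraries, at 1.42, 2.03 and 2.48 CPM in Thy-Noc libraries and at 1.04, 1.43 and 1.78 CPM in DMSO libraries. HU replicates 1 and 3 were above every other library, and HU replicate 2 lay within the DMSO range. FCRL4 averaged 4.30 ± 2.63 CPM in HU and 1.41 ± 0.37 CPM in DMSO (SD, n = 3 each). The log2 fold change of 1.60 ± 0.57 (SE) did not pass (edgeR adjusted p 0.167). It was 1.42 without HU replicate 1, 2.05 without HU replicate 2 and 1.24 without HU replicate 3 (edgeR adjusted p 0.318, 0.0441 and 0.343). HU replicate 2 is the lowest HU library, so the larger value without it follows from its removal and supports no call.

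FCRL5 stood at 23.7, 1.31 and 30.4 CPM in HU libraries, at 2.20, 3.89 and 6.50 CPM in Thy-Noc libraries and at 2.20, 1.09 and 4.52 CPM in DMSO libraries. The same HU libraries were high, and HU replicate 2 was below all Thy-Noc libraries and inside the DMSO range. FCRL5 averaged 18.5 ± 15.2 CPM in HU and 2.60 ± 1.75 CPM in DMSO (SD, n = 3 each). Its log2 fold change of 2.83 ± 1.09 (SE) did not pass (edgeR adjusted p 0.196). It was 2.61 without HU replicate 1, 3.39 without HU replicate 2 and 2.27 without HU replicate 3, and 1.87 to 2.11 by limma, and passed in none of these (adjusted p 0.0668 to 0.37). DESeq2 called both genes higher in HU (adjusted p 0.0383 for FCRL4 and 0.0317 for FCRL5), in a comparison where it called 2135 genes against 404 by edgeR.

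Against DMSO, Thy-Noc gave log2 fold changes of 0.48 ± 0.56 (SE) for FCRL4 and 0.69 ± 1.02 (SE) for FCRL5. Neither passed, with 95% intervals from −0.83 to 1.80 and from −1.72 to 3.10, so a difference of several-fold is not excluded for FCRL5. Against Thy-Noc, HU gave log2 fold changes of 1.12 ± 0.56 (SE) for FCRL4 and 2.14 ± 1.06 (SE) for FCRL5, which did not pass either (edgeR adjusted p 0.34 and 0.334).

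FCRLA, the intracellular immunoglobulin-binding member, had the highest level of the family in each library and varied as much within groups as between them. It stood at 299.8, 166 and 104 CPM in HU libraries, at 102, 250.2 and 136 CPM in Thy-Noc libraries and at 70.2, 76.1 and 261 CPM in DMSO libraries. The ranges of all 3 groups overlapped, and each group had a different replicate as its highest. The means were 189.9 ± 100.2 CPM in HU, 163 ± 77.5 CPM in Thy-Noc and 136 ± 109 CPM in DMSO (SD, n = 3 each). The log2 fold changes were 0.48 (95% interval −1.04 to 2.01) in HU against DMSO, 0.26 (−1.26 to 1.78) in Thy-Noc against DMSO and 0.22 (−1.30 to 1.74) in HU against Thy-Noc, and none passed.

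FCRLB, the neighbour of FCRLA, was steadier. It stood at 7.72, 6.70 and 5.40 CPM in HU libraries, at 3.0, 5.05 and 5.51 CPM in Thy-Noc libraries and at 6.04, 4.68 and 4.65 CPM in DMSO libraries. The groups overlapped in all 3 comparisons, and the log2 fold changes of 0.37 ± 0.28, −0.18 ± 0.28 and 0.55 ± 0.28 (SE) for HU against DMSO, Thy-Noc against DMSO and HU against Thy-Noc did not pass (edgeR adjusted p 0.526, 1 and 0.353).

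The members also differed in the spread between replicates. The largest difference between replicates of a group, after adding 0.5 CPM, was 1.55-fold for FCRL3, 1.72-fold for FCRLB, 3.70-fold for FCRLA, 3.74-fold for FCRL4 and 17.1-fold for FCRL5, beside a median of 2.03-fold over all tested genes. A smaller value was found for 34.2% of the tested genes in the case of FCRL3 and for 88% in the case of FCRL5. GENCODE annotates 12 transcripts for FCRL3, 3 for FCRL4, 8 for FCRL5, 14 for FCRLA and 6 for FCRLB.

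**Figure D3:**
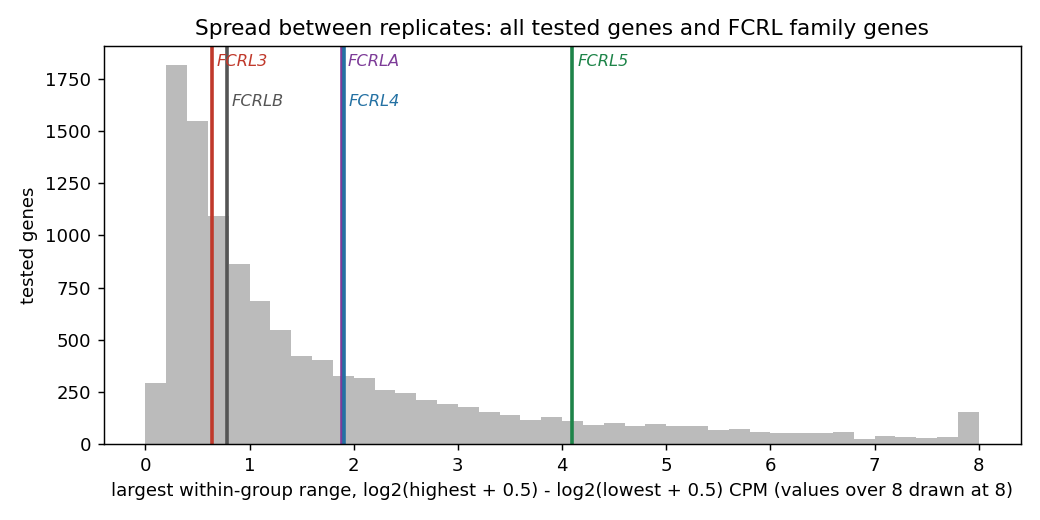
Histogram of the largest within-group range (log2 scale, 0.5 CPM added) of the 11346 tested genes, with lines at FCRL3, FCRLB, FCRLA, FCRL4 and FCRL5. FCRL3 lies left of the median of 2.03-fold, FCRLA and FCRL4 share a place to its right, and FCRL5 lies at 17.1-fold.

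Divided by the exon length of each gene, the order of levels in DMSO libraries was FCRLA (41.5 ± 33.2 CPM per kb, mean and SD), FCRL3 (5.34 ± 1.18), FCRLB (1.98 ± 0.31), FCRL4 (0.365 ± 0.095) and FCRL5 (0.210 ± 0.141). The libraries of neighbouring genes in this order did not overlap, except for FCRL4 (0.268 to 0.459 CPM per kb) and FCRL5 (0.0878 to 0.364 CPM per kb). In Thy-Noc libraries FCRL3 stood last, at 0.255 ± 0.061 CPM per kb, after FCRLA (49.8 ± 23.7), FCRLB (1.74 ± 0.52), FCRL4 (0.511 ± 0.138) and FCRL5 (0.338 ± 0.175), and its libraries overlapped those of FCRL5. In HU libraries, FCRLA (58.0 ± 30.6 CPM per kb) was followed by FCRLB (2.55 ± 0.45). FCRL5 (1.49 ± 1.23), FCRL3 (1.33 ± 0.27) and FCRL4 (1.11 ± 0.68) came next with overlapping libraries, and FCRL5 (up to 2.44 CPM per kb) also overlapped FCRLB (from 2.08 CPM per kb). Exon length is that of all GENCODE exons of a gene merged, so an unused exon lowers its value.

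The genes with the most similar profiles were sought by the root mean square difference in log2(CPM + 0.5) over the 9 libraries, after centring each gene on its own mean. For FCRL3 these were ZNF737 (0.821), PCMTD1 (0.927) and BTD (0.935), against a median of 1.72 over all other tested genes. All 3 were lower in every HU and Thy-Noc library than in any DMSO library, which follows from their choice by likeness to FCRL3. For FCRL4 they were APOL6 (0.271), TAF13 (0.304) and RGS2 (0.313), against a median of 0.845. For FCRL5 they were CASP8AP2 (0.556), TMEM229B (0.578) and VCAM1 (0.586), against a median of 1.52. VCAM1, an adhesion molecule, stood at 20.7, 3.36 and 17.4 CPM in HU, at 2.65, 2.67 and 4.25 CPM in Thy-Noc and at 2.68, 1.73 and 2.76 CPM in DMSO libraries. VCAM1 was picked for its likeness to FCRL5, so its high HU replicates 1 and 3 follow from that choice. FCRL4 itself was at position 11 in likeness to FCRL5 (0.783), whereas FCRL3 was at position 10352 (2.39). Seen from FCRL4, whose own changes are smaller, FCRL5 was at position 4452 (0.783). For FCRLA the nearest were GATD1 (0.352), CRMP1 (0.352) and NLRC4 (0.357), against a median of 0.847. These 3 genes were near the floor, at 0.181 to 3.89, 0.00952 to 1.55 and 0.228 to 2.51 CPM, beside 70.2 to 299.8 CPM for FCRLA. The added 0.5 CPM therefore weighs more in their profiles than in that of FCRLA. The 3 nearest to FCRL3 were also near the floor in HU and Thy-Noc libraries, at 0.165 to 1.45 (ZNF737), 0.596 to 1.30 (PCMTD1) and 0.00952 to 0.834 CPM (BTD). CASP8AP2 was near it in DMSO libraries, at 0.447 to 0.9999 CPM. All of these distances describe 9 shared libraries and carry no test.

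**Figure D4:**
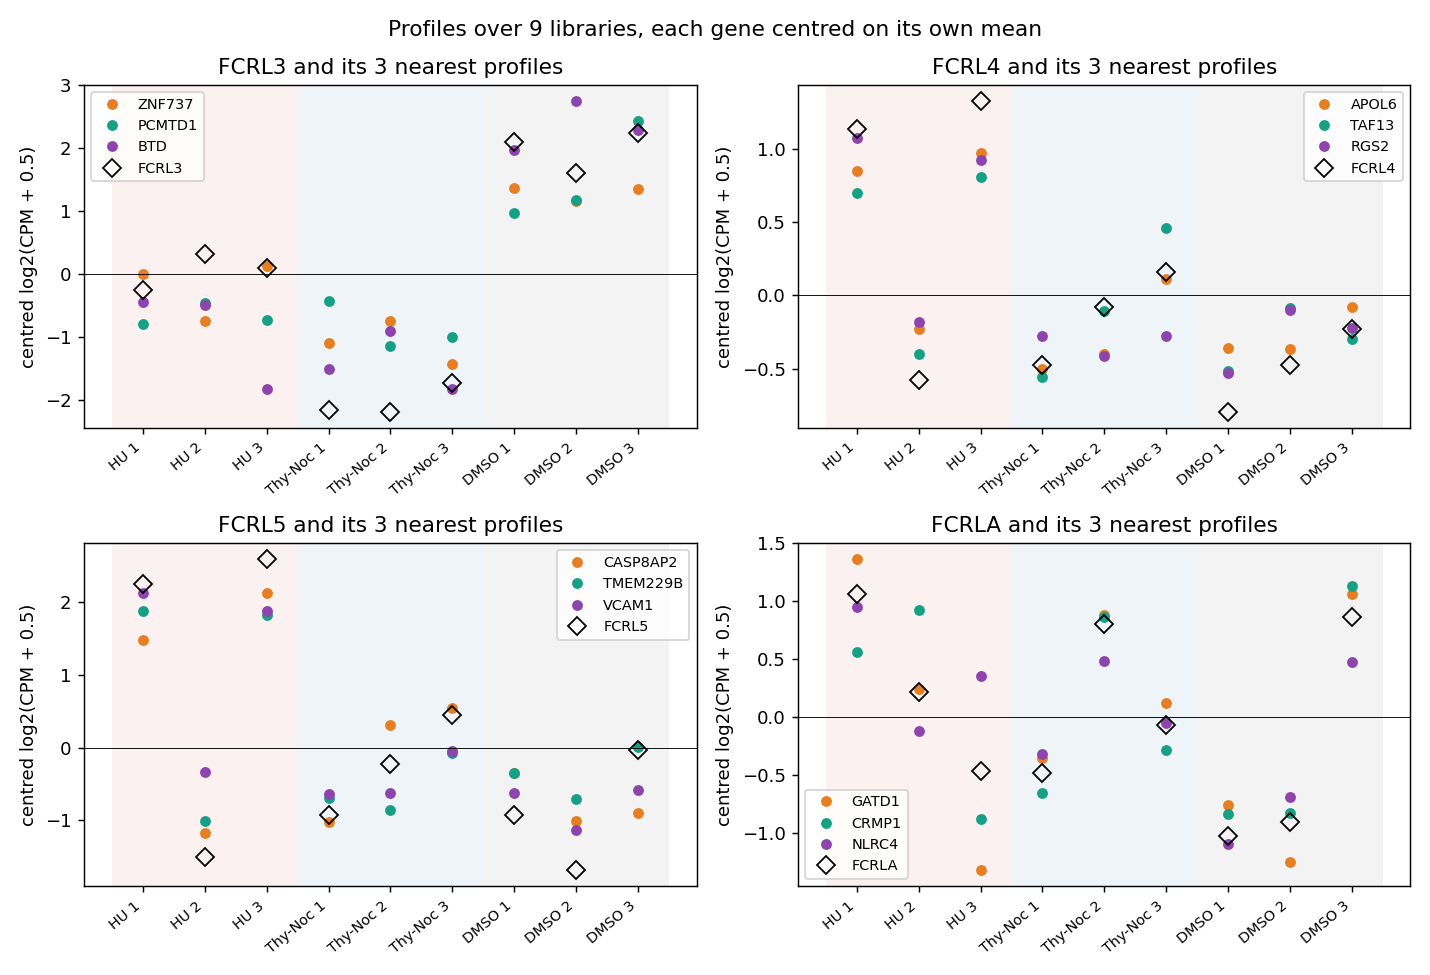
Centred log2(CPM + 0.5) in each of the 9 libraries for FCRL3, FCRL4, FCRL5 and FCRLA (open diamonds) and the 3 genes nearest to each (filled points); shading marks HU, Thy-Noc and DMSO. In the FCRL4 and FCRL5 panels HU replicates 1 and 3 are high and HU replicate 2 is not, while the FCRLA panel follows no group.

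Among the classical Fc receptors and immunoglobulin-binding relatives, 1 of 6 tested genes was higher and 0 were lower in HU against DMSO, with a median log2 fold change of 0.62 beside 0.02 over all tested genes. Of all 11346 tested genes, 227 were called higher and 177 lower (3.56% in either direction). DESeq2 called 2 of the 6 and limma 1, beside 2135 and 562 of all tested genes. An unadjusted p below 0.05 was found for 2 of the 6, beside 21.2% of all tested genes. The gene called by edgeR was FCMR, the IgM receptor, at 20.5, 11.9 and 13.5 CPM in HU against 4.65, 3.78 and 3.48 CPM in DMSO (log2 fold change 1.94 ± 0.35, SE, edgeR adjusted p 0.0374). FCER2, the low-affinity IgE receptor CD23, stood at 80.3, 90.3 and 98.7 CPM in HU against 53.1, 38.1 and 45.2 CPM in DMSO and missed the threshold (edgeR adjusted p 0.084). FCGR2A, FCGR2B and FCGR2C are similar in parts of their sequence, so their values are uncertain. In Thy-Noc against DMSO, edgeR, DESeq2 and limma each called 0 of the 6, beside 4, 179 and 12 of all tested genes. An unadjusted p under 0.05 was found for 0 of the 6, beside 4.49% of all tested genes. In HU against Thy-Noc the calls were 0 by edgeR, 1 by DESeq2 and 0 by limma, beside 199, 1826 and 326 of all tested genes. An unadjusted p below 0.05 was found for 2 of the 6, beside 19.4% of all tested genes.

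Other inhibitory receptors of B cells with ITIMs had 0 of 8 tested genes called by edgeR, 1 by DESeq2 and 0 by limma in HU against DMSO, and an unadjusted p below 0.05 in 3 (median log2 fold change 0.52). Over all 11346 tested genes these tools called 404, 2135 and 562, and 21.2% had an unadjusted p below 0.05. CEACAM1 had the largest change, 2.22 ± 0.92 (SE, edgeR adjusted p 0.221). CD22, a sialic acid-binding inhibitory receptor, stood at 8.63, 7.88 and 5.69 CPM in HU against 1.51, 4.17 and 1.92 CPM in DMSO, without overlap and without passing (edgeR adjusted p 0.255). Among ITIM effectors, edgeR, DESeq2 and limma each called 0 of 9, and 1 had an unadjusted p below 0.05. PTPN6, the phosphatase that ITIMs recruit, stood at 32.1, 1.23 and 0.666 CPM in HU, at 0.818, 5.47 and 1.63 CPM in Thy-Noc and at 14.0, 8.70 and 2.18 CPM in DMSO libraries, too uneven for a direction. INPP5D, the lipid phosphatase of this pathway, had a log2 fold change of 0.39 ± 0.52 (SE) in HU against DMSO. In Thy-Noc against DMSO, edgeR, DESeq2 and limma each called 0 in either list, beside only 4, 179 and 12 of all 11346 tested genes. An unadjusted p under 0.05 was found for 0, beside 4.49% of all tested genes. In HU against Thy-Noc edgeR called 0 in either list. DESeq2 called 1 in each list there and limma 0, and 2 ITIM receptors and 1 effector were below an unadjusted p of 0.05. Over all tested genes edgeR, DESeq2 and limma called 199, 1826 and 326 there, and 19.4% were below an unadjusted p of 0.05.

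Of the B-cell receptor complex and coreceptors, 1 of 8 tested genes was called in HU against DMSO, where 3.56% of all tested genes were. DESeq2 and limma each called 1, beside 2135 and 562 of all tested genes. An unadjusted p below 0.05 was found for 2 of the 8, beside 21.2% of all tested genes. CD40, a costimulatory receptor, stood at 90.0, 82.1 and 46.7 CPM in HU against 26.0, 22.7 and 36.2 CPM in DMSO (log2 fold change 1.37 ± 0.28, SE, edgeR adjusted p 0.0492). MS4A1, a B-cell surface marker, had a log2 fold change of 0.72 ± 0.28 (SE) and did not pass (edgeR adjusted p 0.198). Of 19 proximal signalling genes, 2 were higher and 0 lower by edgeR, beside the same 3.56% of all tested genes. DESeq2 called 6 and limma 2, and 7 had an unadjusted p below 0.05, beside 21.2% of all tested genes. PRKCB, a protein kinase C that relays B-cell receptor signals, rose by 0.78 ± 0.15 and PIK3AP1, an adaptor for PI3 kinase, by 0.53 ± 0.10 (log2 fold change and SE, edgeR adjusted p 0.0448 and 0.0379). LYN, SYK and BTK, kinases of the pathway, had log2 fold changes of 0.48, −1.53 and 0.40 and did not pass. In Thy-Noc against DMSO, edgeR, DESeq2 and limma called 0 in these lists, beside only 4, 179 and 12 of all 11346 tested genes. An unadjusted p under 0.05 was found for 0, beside 4.49% of all tested genes. In HU against Thy-Noc edgeR called 0. DESeq2 called 0 complex and 3 signalling genes, limma 0 and 1, and 3 and 6 had an unadjusted p below 0.05. Over all tested genes edgeR called 199 there, DESeq2 1826 and limma 326, and 19.4% had an unadjusted p below 0.05.

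B-cell transcription factors had 2 of 20 tested genes higher and 1 lower, both in HU against DMSO and in HU against Thy-Noc. Of all 11346 tested genes, 227 were higher and 177 lower in HU against DMSO (3.56% in all), and 0.696% were higher and 1.06% lower in HU against Thy-Noc. DESeq2 called 5 and 4 of the 20 in these comparisons, beside 2135 and 1826 of all 11346 tested genes. Limma called 3 in each, beside 562 and 326 of all tested genes. An unadjusted p below 0.05 was found for 4 in each, beside 21.2% and 19.4% of all tested genes. RUNX3 stood at 370.2, 370.2 and 355 CPM in HU, at 269.6, 255 and 251 CPM in Thy-Noc and at 251, 249 and 244 CPM in DMSO libraries. Its log2 fold change was 0.56 ± 0.07 (SE) against DMSO and 0.50 ± 0.07 (SE) against Thy-Noc (edgeR adjusted p 0.0159 and 0.0261). SPIB, an ETS factor of B cells, was at 317, 242 and 230.3 CPM in HU against 101, 139 and 116 CPM in Thy-Noc, and BACH2, a repressor of plasma cell genes, at 3.39, 5.90 and 3.81 CPM in HU against 13.6, 11.6 and 9.90 CPM in Thy-Noc (edgeR adjusted p 0.0354 and 0.0443). In Thy-Noc against DMSO, edgeR, DESeq2 and limma each called 0 of the 20, beside only 4, 179 and 12 of all 11346 tested genes. An unadjusted p under 0.05 was found for 0 of the 20, beside 4.49% of all tested genes.

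Genes near the family on chromosome band 1q23 had no call by edgeR among 8 tested. DESeq2 called 0, 1 and 1 of them in HU against DMSO, Thy-Noc against DMSO and HU against Thy-Noc, limma called 0 in each, and 0, 2 and 1 had an unadjusted p below 0.05. Over all 11346 tested genes edgeR called 404, 4 and 199 in these comparisons, DESeq2 2135, 179 and 1826, and limma 562, 12 and 326. An unadjusted p below 0.05 was found for 21.2%, 4.49% and 19.4% of all tested genes. PRCC, a gene of this band, had the largest change of the list in Thy-Noc against DMSO, larger than that of FCRL3. It stood at 169.9, 0.375 and 158 CPM in HU, at 1.06, 0.467 and 1.20 CPM in Thy-Noc and at 142, 171 and 152 CPM in DMSO libraries. All Thy-Noc libraries and HU replicate 2 were low, and the log2 fold change of −7.41 ± 1.85 (SE) in Thy-Noc against DMSO did not pass (edgeR adjusted p 1).

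**Figure D5:**
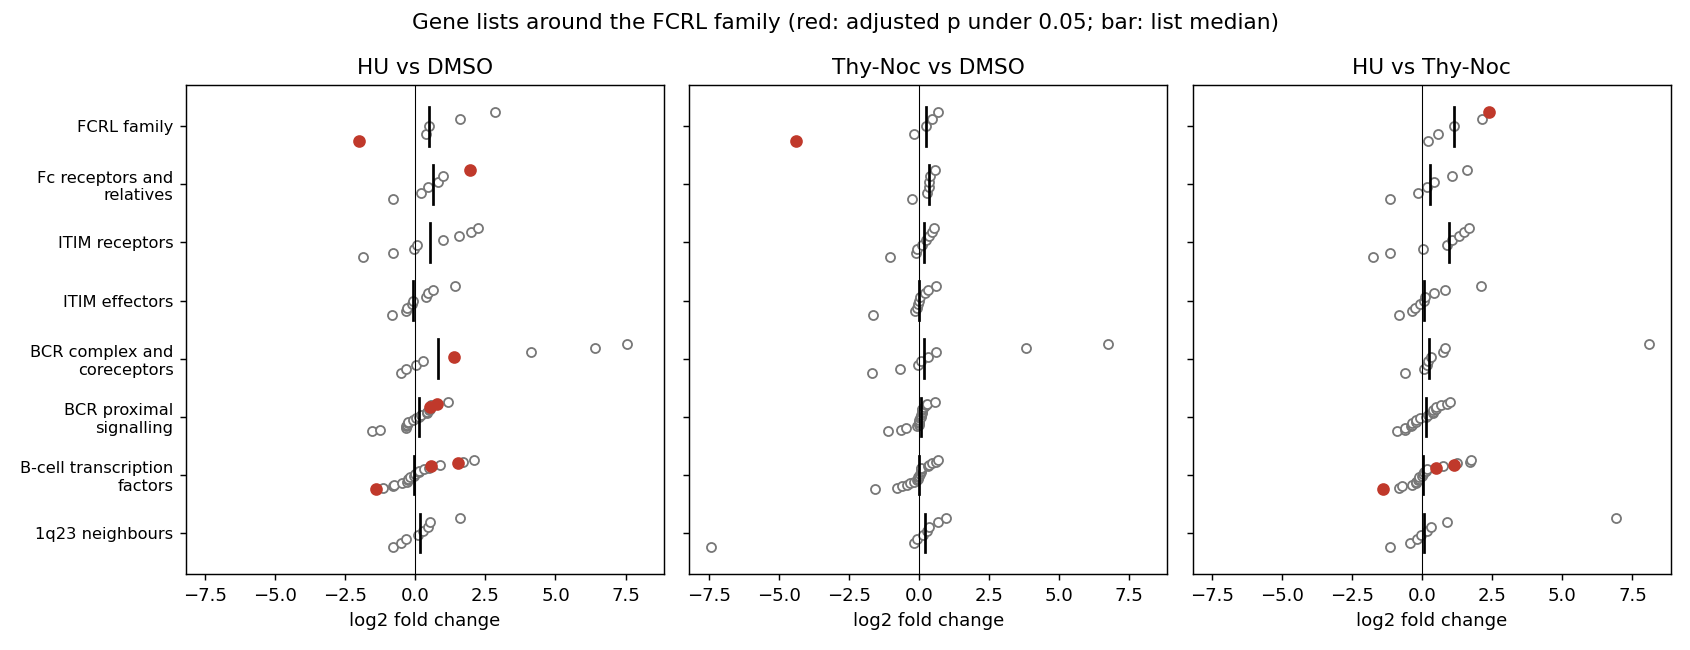
Log2 fold changes of the tested genes of 8 lists in HU against DMSO, Thy-Noc against DMSO and HU against Thy-Noc; red points passed an adjusted p of 0.05 by edgeR and bars are list medians. FCRL3 at −4.39 is the only red point in the Thy-Noc against DMSO panel.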

How the data were processed

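Per the labels' protocols, the RNA was made into stranded mRNA libraries. GRCh38 and the tools FastQC, Trim Galore, STAR and DESeq2 are listed in the submitters' processing notes, with no version or role. No source used here states the counter, its annotation or how it treated strand. The 1 table deposited by the authors is named for CPM, but its values are whole numbers with unequal totals and a minimum of 1 (274 genes stand at 1 in all libraries). Their unit was therefore taken to be expected counts, as deposited by the authors, and no rounding was needed. Symbols were matched by identifier (15393 of 15436), and 15272 had GENCODE 29 coordinates.

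The 11346 genes that reached 1 CPM in 3 or more libraries were scaled by TMM and fitted with the 3 groups in edgeR 4.0.16 (R 4.3.3), with 2-sided quasi-likelihood tests, Benjamini-Hochberg adjustment over all tested genes and a threshold of 0.05. Residual degrees of freedom were 6, with a prior of 1.25. A tested gene had a median count of 1187, so the spread between libraries limits precision more than depth. Libraries of 1 group differed by a chi-square of 732 to 966 per degree of freedom, so none repeats another. The settings varied were the filter (none, or 5 CPM), the scaling (median of ratios, or total count), DESeq2 1.42.0, limma 3.58.1 on log2(CPM + 0.5, 0.1 or 1), only the 6 libraries compared, the replicate number as a block and leaving out each library. In counts simulated for HU against DMSO (11127 genes, 200 changed), 76% of 16-fold, 56% of 8-fold, 14% of 4-fold and 0% of 2-fold changes were called, and 1.35% of calls were false.

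The members, gene lists and tests were chosen with earlier results of these data known. Named are all members, FCRLB, called list genes (up to 4 per direction, mean CPM of at least 2) or else the largest change, a fixed set of B-cell genes, and the 3 nearest profiles per member. The text leaves out some of these.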

Additional observations from a re-analysis of the deposited data

How the results depend on the processing

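Over 19 alternatives, the log2 fold change of FCRL3 lay between −2.16 and −1.85 in HU against DMSO, −4.60 and −3.74 in Thy-Noc against DMSO, and 1.86 and 2.61 in HU against Thy-Noc, with the adjusted p under 0.05 in 13, 18 and 12 of them. Where the call ended, the cause was not tested. Fits without 1 library or with only 6 libraries hold fewer samples, while the fit with the replicate block holds all 9. With only the 6 libraries compared, FCRL3 was at −2.01 (edgeR adjusted p 0.0576) in HU against DMSO and 2.37 (0.0809) in HU against Thy-Noc, leaving 0 members called in each. With the replicate number as a block it was at −1.99 (edgeR adjusted p 0.0663), −4.40 (0.0855) and 2.41 (0.0819), leaving 0 members called in each of the 3 comparisons. That block left 9, 0 and 0 of all genes called, against 404, 4 and 199 without it. The labels do not say whether libraries of the same number belong together. The correlation of their deviations from the group means ran from −0.035 to 0.0405 between same-numbered and from −0.0536 to 0.0331 between other libraries of different groups. Between HU and Thy-Noc it was 0.0405, 0.0393 and 0.0292 for same-numbered libraries and −0.0335 to −0.00597 for others. Deviations from a group mean cancel out over its replicates, so the values of same-numbered and of other libraries are tied and are not separate observations. Between DMSO and either block, both kinds held both signs. A shared origin by number was not tested. DESeq2 called 3 members in HU against DMSO, adding FCRL4 (1.59) and FCRL5 (2.82). Leaving out 1 library gave 0 to 2 members called in HU against DMSO, 1 in each fit of Thy-Noc against DMSO and 0 to 1 in HU against Thy-Noc. In those fits FCRL3 ran from −2.16 to −1.85, −4.60 to −4.25 and 2.25 to 2.61, FCRL4 and FCRL5 in HU against DMSO from 1.24 to 2.05 and 2.27 to 3.50, and FCRLA changed sign, from −0.01 to 1.39 (HU against DMSO, −0.00574 without HU replicate 1), −0.18 to 1.16 (Thy-Noc against DMSO, −0.0491 and −0.0214 without DMSO replicates 1 and 2, −0.184 without Thy-Noc replicate 2) and −0.27 to 0.68 (HU against Thy-Noc, −0.269 without HU replicate 1, −0.0166 without Thy-Noc replicate 1). FCRL4 was not tested at a CPM minimum of 5. Over all genes in HU against DMSO, edgeR called 21 to 318 without 1 library, 220 without a filter, 508 at a CPM minimum of 5, 51 with only the 6 libraries, and DESeq2 2135. In Thy-Noc against DMSO edgeR called 5 to 13 without 1 library, limma 7 to 12 and DESeq2 179. In HU against Thy-Noc edgeR called 1 (without Thy-Noc replicate 3) to 154 without 1 library, 64 without a filter, 313 at a CPM minimum of 5 and 18 with only the 6 libraries, limma 311 to 346 and DESeq2 1826.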

Other observations

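FCGR2B, an inhibitory IgG receptor of B cells encoded near FCRLA, stood at 73.9, 0.854 and 1.01 CPM in HU libraries, at 53.7, 59.6 and 56.8 CPM in Thy-Noc libraries and at 37.3, 49.0 and 45.1 CPM in DMSO libraries. HU replicates 2 and 3 were low and HU replicate 1 was the highest of all, and the log2 fold change of −0.79 ± 1.47 (SE) in HU against DMSO did not pass (edgeR adjusted p 0.847). Reads of FCGR2B can be split with FCGR2A and FCGR2C, which are similar to it in parts of their sequence, so these values are uncertain. MZB1, a chaperone of antibody assembly, was at 158, 160.1 and 130.5 CPM in HU, 293, 288 and 338 CPM in Thy-Noc and 296, 229.5 and 229 CPM in DMSO libraries. It was lower in HU against Thy-Noc (log2 fold change −1.03 ± 0.14, SE, edgeR adjusted p 0.03) and against DMSO (−0.75 ± 0.14, SE, edgeR adjusted p 0.0412). Of the 4 plasma cell markers tested, edgeR called no other in these comparisons. JCHAIN missed the threshold in HU against DMSO (−0.64 ± 0.14, SE, edgeR adjusted p 0.0575). PRDM1 and XBP1 had log2 fold changes in the other direction there, 0.88 ± 0.61 and 0.30 ± 0.57 (SE). Neither passed (edgeR adjusted p 0.477 and 0.851), so the plasma cell markers did not move together. In HU against DMSO, DESeq2 and limma each called 2 of the 4, beside 2135 and 562 of all 11346 tested genes. In HU against Thy-Noc, DESeq2 called 2 and limma 1, beside 1826 and 326 of all tested genes. Among 5 tested germinal centre markers edgeR, DESeq2 and limma called 0 in each comparison, with 0 at an unadjusted p under 0.05. The 8 B-cell markers also had 0 called by each tool. An unadjusted p under 0.05 was found for 2 of these 8 in HU against DMSO and for 0 in the other comparisons. Over all 11346 tested genes edgeR called 404, 4 and 199 in HU against DMSO, Thy-Noc against DMSO and HU against Thy-Noc. DESeq2 called 2135, 179 and 1826 there and limma 562, 12 and 326, and 21.2%, 4.49% and 19.4% had an unadjusted p under 0.05.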
